A study of Homo sapiens with 24 samples.

Results

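The comparison described here is the step from 25 to 100 nM THZ2 in SJSA-1, an established human osteosarcoma cell line known for its amplified MDM2 gene. Its members were taken from the sample labels alone: 3 arrays of SJSA-1 after 6 h with 25 nM THZ2 and 3 arrays of SJSA-1 after 6 h with 100 nM THZ2, which is 6 of the 24 arrays of the series. RNA was read on the Affymetrix PrimeView array, on which groups of short probes (probe sets) each give 1 intensity per transcript. For reference, 3 SJSA-1 arrays with DMSO (the solvent), 3 with 400 nM THZ2, and 6 arrays of a second osteosarcoma line, U2-OS, with 25 or 100 nM were used, all after 6 h. Each line is 1 cell line grown in culture and no genotype beyond the line's name is given in the labels. The labels number the 3 arrays of a group without saying whether they came from separate cultures, so the p-values below measure the spread between these arrays, which may be technical. DMSO arrays entered no test of the step.

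THZ2 is a covalent inhibitor of CDK7. With cyclin H and MNAT1, CDK7 forms the kinase module of the general transcription factor TFIIH, phosphorylates the C-terminal domain (CTD) of RNA polymerase II as transcription starts, and activates the cell cycle kinases CDK1 and CDK2. Transcripts that decay quickly and depend on constant new synthesis, among them those of many transcription factors and antiapoptotic proteins, are known to be lost first when such kinases are inhibited. The step between these doses asks what a 4-fold higher dose adds to a low one.

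Between arrays of the same group the values correlated with r from 0.993 to 0.997 over all probe sets on the log2 scale, and between the groups from 0.972 to 0.981. No pair of arrays held the same values (at most 3.10% of probe sets were identical). The extraction protocol in the labels names another tissue, so marker lists were examined. In the 25 nM arrays the 10 mesenchymal and osteosarcoma markers summed to intensities of 15450 to 17360, against 16570 to 17140 at 100 nM (two-sided exact permutation p = 0.9; the smallest possible is 0.1). Of 15 nervous tissue markers on the array 10 lay above the line used for dim probe sets, but all at low levels, with a sum of at most 299 in a 25 nM array and at most 311 in a 100 nM array. Blood markers summed to 202 to 255 and to 272 to 279, and epithelial markers, with KRT8 and KRT18 among them, to 4383 to 4724 and to 4981 to 5556, so both sums were higher in each 100 nM array. The part of these in the results below was not tested.

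Of 13775 genes tested, 6181 (44.9%) differed between the doses (limma, Benjamini-Hochberg adjusted p below 0.05): 3563 were lower at 100 nM (25.9%) and 2618 were higher (19%). The falls were larger than the rises. A change of at least 2-fold was reached by 1218 genes that fell (8.84%) and by 73 that rose (0.53%), and the median log2 change over all genes tested was 0.07. In the text, "rose" and "fell" are used only of genes past this threshold, a value after ± is an SE where it follows a log2 change and an SD where it follows an intensity, with n = 3 arrays per dose throughout, and the adjusted p of the 144 genes named below as having risen or fallen was at most 0.00766. The arrays of the doses did not overlap in these 144. The same held for 96.4% of all 6181 genes that passed, and the choice of the largest changes required it.

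The direction of small changes depended on how the arrays were scaled. The poly-A spike-ins, control transcripts added to the RNA before labelling, were 0.44 (log2) higher at 100 than at 25 nM, and centring the arrays on them moved the median change from 0.07 to -0.37. It left 195 genes higher and 7596 lower. Centring on the ribosomal protein genes gave 1258 higher and 4352 lower, and centring on each array's median 3771 higher and 3234 lower. The arrays measure each transcript relative to the rest of the labelled RNA, so that fewer cells of a kind and less RNA per cell cannot be told apart, and changes below are relative to the deposited scaling. Among the genes named below, the rises of ASNS, COL5A1, DNAJB6, HEXIM1, IRS2, LUC7L3, MCM5, NDUFA5, PMVK, RPL27A, THY1 and TM7SF2 no longer passed with spike-in centring, with changes of 0.0058 to 0.26. Those of PMAIP1 and ZFAS1 turned sign with it and did not pass either.

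**Figure D1:**
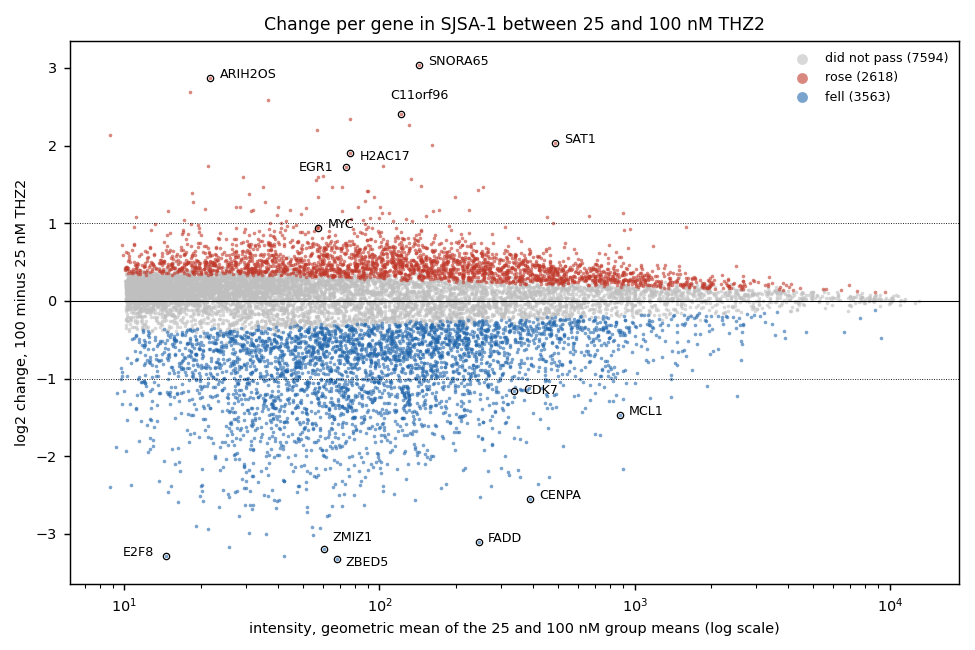
Log2 change of each of the 13775 genes tested between 25 and 100 nM THZ2 in SJSA-1 (vertical axis) against its intensity, the geometric mean of the group means (horizontal log axis). Grey genes did not pass the threshold; the 2618 red genes rose and the 3563 blue genes fell, dotted lines mark 2-fold, and the blue cloud reaches further from 0 than the red one.

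With 25 nM alone fewer genes had moved. Against DMSO 660 of 13653 genes passed (4.83%), 485 lower (3.55%) and 175 higher (1.28%), and 24 (0.176%) fell and 28 (0.205%) rose at least 2-fold. The genes that rose at least 2-fold in the step had a median difference of 0.28 (log2) between 25 nM and DMSO, beside 0.02 over all genes tested. Of these 73 genes 57 had a higher mean at 25 nM than with DMSO, beside 7542 of all 13775. Among the 1218 that fell at least 2-fold the same median was -0.097. The 25 nM arrays are shared by these 2 comparisons, so these values are given as a description. FADD, for example, stood at 1046, 1201 and 1361 with DMSO and had already gone to a mean of 709 at 25 nM, whereas the chromatin gene ZMIZ1 stood at 212, 236 and 207 with DMSO and 182 at 25 nM.

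The 15 largest falls of the step included genes of transcription, chromatin, signalling and cell death. ZBED5, a gene derived from a transposon, read 258, 184 and 205 at 25 nM and 22.6, 23.1 and 18.5 at 100 nM, and fell by 3.32 ± 0.15 on the log2 scale (adjusted p = 2.87e-09). Its highest 100 nM array lay far below its lowest 25 nM array. ZC3H4, which is known to cut short the transcription of noncoding RNAs, read 141, 124 and 129.8 at 25 nM and 12.8, 16.7 and 11.3 at 100 nM and fell by 3.29 ± 0.15. ZMIZ1, a transcriptional coregulator of the PIAS-like family, read 190.02, 164 and 193 at 25 nM and 20.5, 22.5 and 17.1 at 100 nM and fell by 3.19 ± 0.13. The nearest arrays of the doses were 7.31-fold apart in ZMIZ1 and further apart in ZBED5 and ZC3H4.

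FADD, the adaptor that couples death receptors to caspase 8, read 714, 724 and 689.8 at 25 nM and 67.6, 115 and 72.5 at 100 nM and fell by 3.10 ± 0.15 (adjusted p = 6.25e-09). All 3 arrays at 100 nM lay far below the 25 nM arrays, which were close together. The helicase-like DHX32 read 163, 148 and 154 at 25 nM and 18.8, 24.4 and 15.6 at 100 nM and fell by 3.01 ± 0.15. ARID2, a subunit of the PBAF chromatin remodelling complex, read 100.4, 99.7 and 99.7 at 25 nM and 11.7, 17.5 and 9.58 at 100 nM and fell by 2.997 ± 0.18. SOS1, the exchange factor that loads RAS with GTP, read 93.7, 82.1 and 83.3 at 25 nM and 10.7, 11.3 and 10.7 at 100 nM and fell by 2.98 ± 0.13, with the 100 nM arrays close together. ZIC5, a zinc finger factor of neural development, read 171, 144 and 164 at 25 nM and 18.9, 28.8 and 17.03 at 100 nM and fell by 2.92 ± 0.17.

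The others among the 15 largest falls were in part so dim at 100 nM that the fold is a bound. A group counted as dim when its mean lay under an intensity of 10.13, the 30th percentile of the 6 arrays, and the bound sets each array under that line to the line. E2F8, a repressor of the E2F family, read 52.3, 37.01 and 47.2 at 25 nM and 4.08, 5.17 and 4.66 at 100 nM, at least 4.45-fold lower (fitted log2 change -3.29 ± 0.16). ZNF827 was at least 7.09-fold lower, and the centrosome gene CEP350 at least 5.03-fold. MRTFB, a coactivator of serum response factor, was at least 5.80-fold lower on the probe set used, while 1 of its 3 probe sets passed in the opposite direction. The remaining genes were RNF111, a ubiquitin ligase of TGF-beta signalling (-2.92 ± 0.25), IRF2, an interferon regulatory factor (-2.78 ± 0.21), and BNC1, a zinc finger protein known from epithelia and germ cells (-2.77 ± 0.15). RNF111 had 1 array of the 100 nM group apart from the others, at 10.7 against 24.6 and 26.5.

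**Figure D2:**
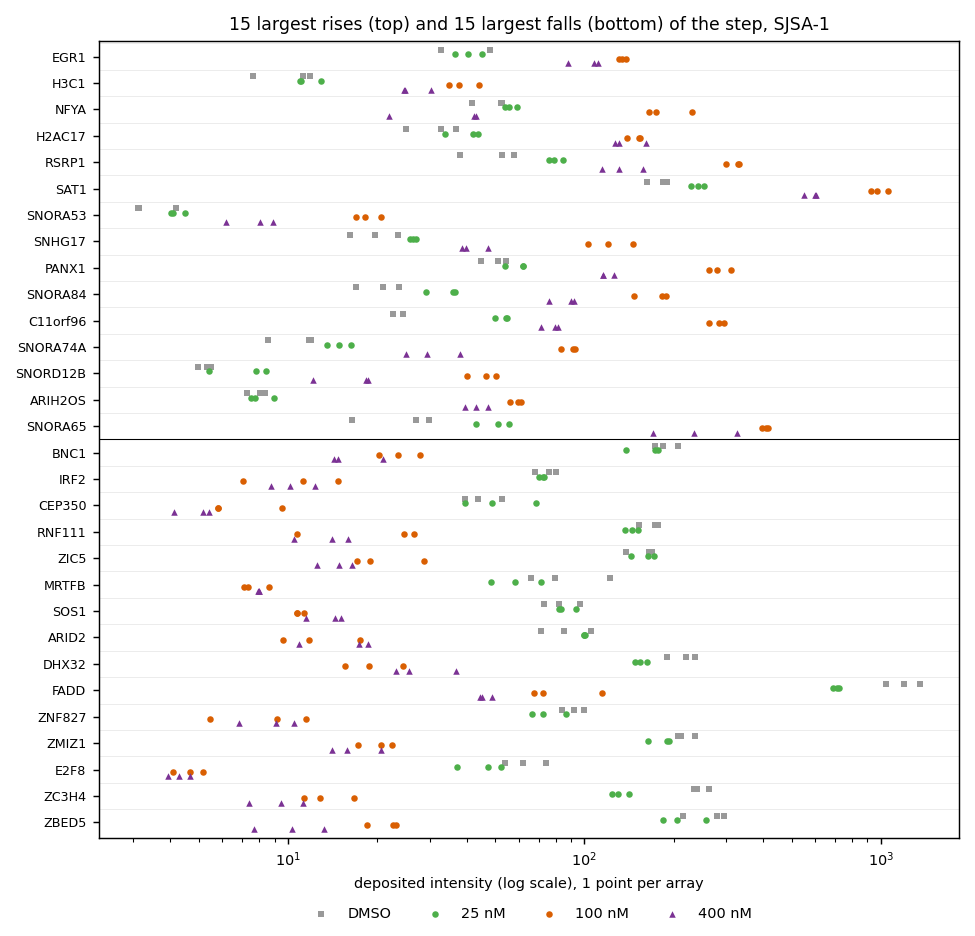
Deposited intensity on a log axis of the 15 genes with the largest rises (upper block) and the 15 with the largest falls (lower block) in the step, 1 point per array, for DMSO (grey squares), 25 nM (green), 100 nM (orange) and 400 nM (purple triangles). In every gene the orange and green points are apart, and in most of the upper block, such as SNORA65 and SAT1, the purple points lie back towards the green ones.

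Several small nucleolar RNAs were among the 15 largest rises. These RNAs guide the chemical modification of ribosomal RNA, are cut from the introns of host genes, and SNORA names mark those that direct pseudouridylation. SNORA65 read 43.1, 51.3 and 55.7 at 25 nM and 416, 410.1 and 396 at 100 nM, and rose by 3.03 ± 0.11 on the log2 scale (adjusted p = 1.46e-09). SNORA74A read 13.5, 16.3 and 14.8 at 25 nM and 91.8, 93.1 and 83.3 at 100 nM, a rise of 2.59 ± 0.13. SNORA84 read 36.5, 36.002 and 29.2 at 25 nM and 182, 189 and 147 at 100 nM, a rise of 2.35 ± 0.14. The nearest arrays of the doses were 4.03-fold apart in SNORA84 and further apart in the other two. SNORD12B, of the class that directs methylation, was dim at 25 nM and at least 4.49-fold higher at 100 nM, with 8.40, 5.39 and 7.78 at 25 nM and 50.2, 46.5 and 40.2 at 100 nM. SNORA53 was at least 1.82-fold higher, its 25 nM arrays all being under 4.5.

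A set of 36 small nucleolar and Cajal body RNAs was put together after these values were seen and is described without support being drawn from it. Of the 36 tested, 25 rose (69.4%) and 0 fell, against 19% and 25.9% of all genes, and their median change was 0.53 against 0.07. Of the 22 tested genes that span those that rose, 5 rose as well, 6 fell and 11 did not pass, which is near the shares of all genes (19% rose and 25.9% fell). RPL12, which spans SNORA65, changed by 0.07 ± 0.045, MATR3 around SNORA74A by 0.13 ± 0.096, IARS1 around SNORA84 by 0.11 ± 0.066 and SLC25A3 around SNORA53 by 0.073 ± 0.047, and none of these 4 passed. SNX5 around SNORD17 rose by 1.09 ± 0.098, whereas TIPIN around SCARNA14 fell by 1.05 ± 0.11 and SRCAP around SNORA30 by 1.21 ± 0.14. ZFAS1, the noncoding host of SNORD12B, rose by 0.23 ± 0.056, but 1 of its 4 probe sets passed in the opposite direction and the change turned to -0.20 with spike-in centring. Whether these probe sets read the mature small RNA or unspliced host transcript was not tested.

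The host genes that are themselves noncoding went both ways. SNHG17, host of SNORA71 copies, read 27.1, 25.8 and 26.4 at 25 nM and 120.3, 146 and 103 at 100 nM and rose by 2.20 ± 0.14. SNHG9 read 161, 147 and 136 at 25 nM and 393, 419 and 383 at 100 nM and rose by 1.43 ± 0.10. SNHG7 fell by 1.20 ± 0.092 and SNHG12 by 0.94 ± 0.10. Of 11 such hosts tested 3 rose (27.3%, beside 19% of all genes) and 2 fell (18.2%, beside 25.9%), with a median change of 0.093, and the balance was turned by spike-in centring.

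The other largest rises were in genes of several kinds. SAT1 encodes the acetyltransferase that sets the rate of polyamine breakdown and read 252, 242 and 229 at 25 nM and 1060.1, 929 and 969 at 100 nM, a rise of 2.03 ± 0.084 (adjusted p = 2.56e-09). C11orf96, whose function is poorly known, read 54.6, 49.9 and 54.2 at 25 nM and 284, 296 and 263 at 100 nM, a rise of 2.41 ± 0.11. RSRP1, a protein rich in arginine and serine, read 78.8, 84.4 and 76.1 at 25 nM and 331, 300.2 and 333 at 100 nM, a rise of 2.01 ± 0.10. In RSRP1 the lowest 100 nM array was 3.56-fold above the highest 25 nM array, and the gap was wider in SAT1 and C11orf96. The antisense transcript ARIH2OS was at least 5.82-fold higher at 100 nM, with 8.94, 7.46 and 7.73 at 25 nM and 60.97, 56.1 and 59.7 at 100 nM. It overlaps ARIH2, and signals of such pairs may not be separable on a probe set. The pannexin channel gene PANX1 (2.27 ± 0.11) had 1 of 2 probe sets passing in the opposite direction. NFYA, a subunit of the factor that binds CCAAT boxes, rose by 1.74 ± 0.13 on the probe set used, but 3 of its 5 probe sets passed as lower, and the mean of its probe sets changed by -0.11.

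The transcript of the drug's own target fell. CDK7 read 519, 523 and 465 at 25 nM and 204, 246 and 228 at 100 nM and fell by 1.16 ± 0.10 on the log2 scale (adjusted p = 3.46e-07). Cyclin H (CCNH) read 512, 416 and 526 at 25 nM and 458, 428 and 609 at 100 nM, and MNAT1 read 251, 231 and 244 at 25 nM and 223, 265 and 252 at 100 nM. Neither partner passed, with changes of 0.030 ± 0.13 (adjusted p = 0.861) and 0.027 ± 0.10 (adjusted p = 0.84), and each changed sign in some alternatives. With spike-in centring both passed as lower, CCNH at -0.41 (adjusted p = 0.00987) and MNAT1 at -0.41 (adjusted p = 0.00768). The elongation kinases fell as well: CDK12 from 187 ± 4.86 to 87.6 ± 16.2, a change of -1.11 ± 0.13, and CDK13 from 49.9 ± 6.92 to 16.2 ± 4.82, a change of -1.66 ± 0.19. POLR2A, the largest subunit of RNA polymerase II, read 276, 252 and 284 at 25 nM and 304, 307 and 284 at 100 nM and did not pass (0.14 ± 0.091, adjusted p = 0.226). With spike-in centring it changed by -0.30 and passed as lower (adjusted p = 0.0407).

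Across 30 CTD kinases, cyclins and partners tested, 12 fell (40%) and 4 rose (13.3%), beside 25.9% and 19% of all genes, with a median of -0.19. The largest fall was that of MED13, which links the Mediator kinase module to the rest of Mediator, from 235 ± 38.2 to 45.4 ± 9.50 (-2.38 ± 0.16). MEPCE, which caps the 7SK RNA that holds the elongation factor P-TEFb inactive, fell by 1.97 ± 0.15, and the Mediator kinase CDK8 by 1.19 ± 0.12. On the other side CCNT2, a cyclin of P-TEFb, rose by 0.90 ± 0.14, with 28.2, 26.7 and 29.7 at 25 nM and 43.7, 57.3 and 58.1 at 100 nM. HEXIM1, the P-TEFb inhibitor, rose from 404 ± 22.5 to 552 ± 71.9 (0.44 ± 0.10) on the probe set used, but 1 of 5 probe sets passed in the other direction, and with the probe set chosen over all 24 arrays the change was -0.33.

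Many genes of the cell cycle fell. E2F factors switch the genes of DNA replication and mitosis on (E2F1 to E2F3) or off (E2F4 to E2F8). Of the 8 E2F genes, grouped after their values were seen, 7 fell at least 2-fold, beside 8.84% of all genes. Their median change was -1.93. E2F7 read 197, 133 and 159 at 25 nM and 28.2, 29.9 and 19.97 at 100 nM, a change of -2.65 ± 0.17. E2F3 read 207, 177 and 182 at 25 nM and 31.3, 47.8 and 35.8 at 100 nM, a change of -2.32 ± 0.15. E2F5 read 103, 129.8 and 114 at 25 nM and 24.9, 22.6 and 21.3 at 100 nM, a change of -2.33 ± 0.13. E2F6 fell by 1.54 ± 0.16, E2F4 by 1.09 ± 0.11 and E2F2 by 1.02 ± 0.13. E2F1 read 121, 124 and 139 at 25 nM and 147, 151 and 147 at 100 nM and did not pass (0.21 ± 0.10, adjusted p = 0.107). Its sign or call changed in 3 of 21 alternatives: it turned to -0.22 with spike-in centring, without passing, and passed as higher in the others. The highest change in any alternative was 0.28.

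Of 34 mitotic genes tested, out of 35 listed, 29 fell (85.3%, beside 25.9% of all genes) and 0 rose. A fall of at least 2-fold was reached by 13 of the 34, beside 8.84% of all genes. The median was -0.76, beside 0.07 over all genes. CENPA, the histone variant that marks centromeres, read 962, 891 and 976 at 25 nM and 140.1, 189 and 155 at 100 nM and fell by 2.56 ± 0.11 (adjusted p = 2.56e-09). KNSTRN, a kinetochore and spindle protein, read 605, 596 and 584 at 25 nM and 97.01, 108 and 104 at 100 nM and fell by 2.53 ± 0.091. NDC80, the kinetochore subunit that grips microtubules, read 419, 333 and 446 at 25 nM and 56.9, 88.03 and 83.3 at 100 nM and fell by 2.41 ± 0.16. The nearest arrays of the doses were 3.78-fold apart in NDC80 and further apart in CENPA and KNSTRN. The kinesin KIF18A fell by 2.14 ± 0.25, with 25 nM arrays spread from 41.1 to 77.2.

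Mitotic promoters are known to lack a TATA box and to carry CCAAT boxes and the cell cycle element TTTGAA. The 250 bases before the start of CENPA, at chr2:26785806-26786055 on the plus strand of GRCh38.p14 in RefSeq, are shown because they hold these letters and the E2F-like GCGGGAA. Matches on either strand are in capitals, and they are matches of letters and not measured sites.
CENPA: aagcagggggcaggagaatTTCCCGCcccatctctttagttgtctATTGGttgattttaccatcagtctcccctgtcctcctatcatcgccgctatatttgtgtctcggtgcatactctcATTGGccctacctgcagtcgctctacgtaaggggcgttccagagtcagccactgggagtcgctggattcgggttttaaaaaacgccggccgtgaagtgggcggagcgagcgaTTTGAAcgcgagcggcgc
In windows of 300 bases (250 before to 50 after the start), TTTGAA on either strand was found in 19 of 28 mitotic genes with a promoter in the table (67.9%), beside 10.2% of the 11126 promoters of genes tested. CCAAT was in 20 of the 28 (71.4%, beside 36%), GCGGGAA in 1 (3.57%, beside 9.87%), and TATAAA, searched on the gene's own strand, in 0 (beside 4.98%). The motifs were searched one by one and matches may overlap.

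Replication genes were mixed. Of 38 tested 20 fell (52.6%, beside 25.9%), 4 rose (10.5%, beside 19%) and the median was -0.32. RFC4, a subunit of the clamp loader, read 609, 534 and 568 at 25 nM and 115, 139 and 122 at 100 nM (-2.19 ± 0.10). CDC6, which loads the MCM helicase onto origins, read 781, 724 and 709 at 25 nM and 147, 164 and 179.8 at 100 nM (-2.18 ± 0.10). CDC7, the kinase that fires origins, went from 66.1 ± 15.02 to 15.3 ± 1.19 (-2.09 ± 0.17), and MCM10, a replisome factor, from 193 ± 9.21 to 57.4 ± 6.40 (-1.76 ± 0.12). In the other direction TIMELESS, a fork protection protein, read 85.6, 70.03 and 78.8 at 25 nM and 142, 140.1 and 126 at 100 nM and rose by 0.80 ± 0.12. The helicase subunit MCM5 rose by 0.64 ± 0.12.

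In homologous recombination and the DNA damage checkpoint 13 of 25 tested genes fell (52%, beside 25.9% of all genes). In the other direction 2 rose (8%, beside 19%), and the median was -0.49, beside 0.07 over all genes. The helicase BLM read 78.2, 61.4 and 78.2 at 25 nM and 11.5, 14.1 and 14.2 at 100 nM and fell by 2.45 ± 0.15. BARD1, the partner of BRCA1, read 102, 85.04 and 85.04 at 25 nM and 24.9, 27.5 and 25.5 at 100 nM and fell by 1.80 ± 0.13. PALB2, which bridges BRCA1 and BRCA2, fell by 1.80 ± 0.18, and the strand exchange motor RAD54B by 1.65 ± 0.14. From 25 to 100 nM these 4 genes were 5.46-, 3.48-, 3.48- and 3.14-fold lower.

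Most replication-dependent histone genes rose in the deposited scaling, while with spike-in centring rises and falls were equal in number. Their messages normally lack a poly-A tail and are made in S phase. Of 44 tested, out of 56 listed, 27 rose (61.4%, beside 19%) and 3 fell (6.82%, beside 25.9%), with a median of 0.46. Several that rose were at low levels, and H4C5, H2BC3, H2BC17 and H4C4 had 25 nM means under the dim line of 10.13. Among brighter ones, H1-2 rose from a mean of 365 to 489, while H2BC12, with a mean of 1814 at 25 nM, did not pass. H2AC17, a gene for histone H2A, read 33.8, 41.9 and 43.7 at 25 nM and 153, 139 and 154 at 100 nM and rose by 1.91 ± 0.13 (adjusted p = 4.84e-08). H3C1, for histone H3, read 10.9, 11.1 and 12.9 at 25 nM and 37.8, 44.02 and 34.8 at 100 nM and rose by 1.74 ± 0.14. H2AC8 read 87.4, 95.7 and 78.8 at 25 nM and 261, 247 and 219.8 at 100 nM and rose by 1.48 ± 0.11. In H2AC8 the lowest 100 nM array was 2.30-fold above the highest 25 nM array, with a wider gap in H2AC17 and H3C1. H2BC21 rose by 1.47 ± 0.17 from 38.9 ± 4.87 to 109 ± 26.95. Among the 3 that fell, the linker histone H1-3 went from 64.1 ± 4.73 to 30.4 ± 2.996 (-1.08 ± 0.13), and H4C3 from 7633 ± 407 to 5776 ± 416 (-0.40 ± 0.057). Histone genes are near-identical copies, so probe sets may read more than 1 of them, and whether the poly-A tailed forms were read was not tested.

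Histone promoters differ from mitotic ones in their TATA box. The 250 bases before the start of H2AC17, at chr6:27893186-27893435 on the minus strand of GRCh38.p14 in RefSeq, are shown for the TATAAA near their end. Capitals mark TATAAA and the CCAAT boxes on either strand.
H2AC17: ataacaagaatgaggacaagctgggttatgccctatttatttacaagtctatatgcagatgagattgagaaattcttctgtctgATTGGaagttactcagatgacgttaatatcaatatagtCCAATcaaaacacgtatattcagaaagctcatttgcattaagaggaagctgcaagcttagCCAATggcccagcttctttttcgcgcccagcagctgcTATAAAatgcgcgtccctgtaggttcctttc
TATAAA was found in 22 of 41 promoters of tested histone genes (53.7%) and CCAAT in 36 (87.8%), beside 4.98% and 36% over all promoters of genes tested. Over all genes that rose at least 2-fold, histones included, TATAAA was in 10 of 50 promoters (20%), and over those that fell at least 2-fold in 29 of 1041 (2.79%). These shares describe letters in a window, and the GC content of the sets differed, with a median of 42.3% in the histone promoters, 63.8% in the genes that rose and 65% in those that fell.

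Immediate early genes, which respond to signals within minutes and need no new protein, split. Of 33 tested 13 rose (39.4%, beside 19%) and 9 fell (27.3%, beside 25.9%), with a median of 0.11, and spike-in or ribosomal centring turned the balance to falls. The zinc finger factor EGR1 read 45.3, 36.5 and 40.5 at 25 nM and 138, 131 and 133 at 100 nM and rose by 1.72 ± 0.12 (adjusted p = 6.68e-08). FOS read 50.9, 85.04 and 72.004 at 25 nM and 163, 120.3 and 145 at 100 nM and rose by 1.06 ± 0.17. JUNB rose from 114 ± 10.7 to 258 ± 20.3 (1.18 ± 0.11) and IER5L from 77.4 ± 9.32 to 230.4 ± 34.2 (1.57 ± 0.13). FOSL1, another partner of JUN, went the other way, with 439.6, 357 and 437 at 25 nM and 78.2, 97.01 and 67.2 at 100 nM (-2.36 ± 0.13). PHLDA1, a pleckstrin-like signalling protein, read 282, 274 and 286 at 25 nM and 75.1, 89.9 and 68.6 at 100 nM and fell by 1.86 ± 0.11. Within the AP-1 family FOS and JUNB were thus 2.09- and 2.26-fold higher and FOSL1 5.12-fold lower at the higher dose.

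The EGR1 promoter carries CArG boxes, the letters that serum response factor is known to bind. The 250 bases before the start, at chr5:138465229-138465478 on the plus strand of GRCh38.p14 in RefSeq, are shown with 2 CArG boxes and the TTTGAA match in capitals.
EGR1: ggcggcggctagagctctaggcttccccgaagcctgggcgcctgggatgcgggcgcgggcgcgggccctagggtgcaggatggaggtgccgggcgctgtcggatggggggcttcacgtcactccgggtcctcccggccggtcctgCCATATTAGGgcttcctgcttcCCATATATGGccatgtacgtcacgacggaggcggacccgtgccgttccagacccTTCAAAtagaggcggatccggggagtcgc
A CArG box on either strand was in 129 of the 11126 promoters of genes tested (1.16%), in 2 of 50 that rose at least 2-fold (4%) and in 9 of 1041 that fell at least 2-fold (0.865%). The CRE letters TGACGTCA were in 334 (3%), 1 (2%) and 43 (4.13%) of them.

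Most brakes of MAP kinase signalling fell. DUSP phosphatases switch ERK, JNK and p38 off, and Sprouty and SPRED proteins restrain RAS. Of 17 tested 10 fell (58.8%, beside 25.9%), 0 rose and the median was -0.48. SPRED1 read 197, 165 and 229 at 25 nM and 49.2, 58.5 and 39.7 at 100 nM and fell by 2.01 ± 0.15. SPRED2 went from 286 ± 29.1 to 95.6 ± 18.6 (-1.60 ± 0.14) and DUSP5, an ERK phosphatase of the nucleus, from 302 ± 14.04 to 150.4 ± 24.2 (-1.02 ± 0.12).

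MYC rose while most of its network did not. MYC read 48.2, 34.1 and 43.1 at 25 nM and 81.01, 85.6 and 72.004 at 100 nM and rose by 0.94 ± 0.14 on the log2 scale (adjusted p = 9.77e-05), 1.92-fold. Its 3 arrays at 100 nM all lay above those at 25 nM. Of the 12 MYC network genes tested 6 fell (50%, beside 25.9%) and 3 rose (25%, beside 19%), with a median of -0.32. MLX, the partner of the glucose-sensing MONDO factors, fell by 0.97 ± 0.10, and MGA, a repressor that pairs with MAX, by 0.96 ± 0.15.

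Most antiapoptotic genes tested fell. MCL1, a short-lived guardian of mitochondria, read 1458, 1509.7 and 1370.04 at 25 nM and 488, 639 and 458 at 100 nM and fell by 1.47 ± 0.11 (adjusted p = 9.36e-08), and 1 of its 6 probe sets passed in the opposite direction. XIAP, a caspase inhibitor, went from 122 ± 28.3 to 60.03 ± 9.18 (adjusted p = 0.00022; with the mean of its 5 probe sets the change was -0.16 and did not pass, adjusted p = 0.347), and BIRC2 (cIAP1) from 831 ± 92.8 to 454 ± 92.8 (-0.89 ± 0.13). Of 10 tested 6 fell (60%, beside 25.9%) and 1 rose (10%, beside 19%). BCL2L2 read 168, 128 and 153 at 25 nM and 149, 168 and 165 at 100 nM and did not pass (0.11 ± 0.12, adjusted p = 0.461). With spike-in centring it changed by -0.33 and passed as lower (adjusted p = 0.0449).

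Genes of the proapoptotic BCL2 family were called no more often than other genes. Of 11 tested 2 rose (18.2%, beside 19%) and 2 fell (18.2%, beside 25.9%), and the median was 0.01. BCL2L11 (BIM) read 57.3, 40.2 and 68.6 at 25 nM and 149, 164 and 122 at 100 nM and rose by 1.41 ± 0.17, although 2 of its 14 probe sets passed in the opposite direction. PMAIP1 (NOXA), which binds MCL1, rose from 406 ± 23.1 to 549 ± 33.5 (0.44 ± 0.085), a change that spike-in centring brought to 0. BOK fell by 1.20 ± 0.10 from 319.6 ± 5.89 to 139 ± 12.2.

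In death receptor signalling 7 of 10 tested genes fell (70%, beside 25.9%) and 0 rose, with a median of -0.58. Beside FADD, the TNF receptor TNFRSF1A read 298, 315 and 256 at 25 nM and 57.7, 86.8 and 62.2 at 100 nM (-2.09 ± 0.15), with 1 of its 4 probe sets opposite. TNFAIP3 (A20), which restrains NF-kB, read 159, 115 and 140.1 at 25 nM and 52.7, 54.2 and 53.1 at 100 nM (-1.36 ± 0.13). DIABLO, released from mitochondria to block XIAP, fell by 0.80 ± 0.091.

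MDM2, the p53 ubiquitin ligase, read 996, 792 and 867 at 25 nM and 495, 609 and 553 at 100 nM and fell by 0.68 ± 0.10 (adjusted p = 6.2e-05). CDK4, its neighbour in the amplified region of chromosome 12, read 6700.3, 7332 and 7486 at 25 nM and 6427, 6562 and 6700.3 at 100 nM, which did not pass (-0.13 ± 0.050, adjusted p = 0.051). It passed as lower in 8 of 21 alternatives, with a change of -0.18 without replicate 1 at 25 nM and of -0.56 with spike-in centring. The p53 target CDKN1A (p21) read 653, 809 and 719 at 25 nM and 648, 776 and 560.3 at 100 nM and did not pass either (-0.14 ± 0.11, adjusted p = 0.313). With spike-in centring CDKN1A changed by -0.58 and passed as lower. Of 26 p53 target genes tested 9 fell (34.6%, beside 25.9%) and 6 rose (23.1%, beside 19%), with a median of -0.095. The nuclease AEN fell by 1.35 ± 0.12 and TP53INP1 by 1.18 ± 0.19, whereas the stress gene GADD45B read 891, 923 and 955 at 25 nM and 1409, 1541 and 1574 at 100 nM and rose by 0.71 ± 0.069.

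Among oncogenes and receptors of osteosarcoma 20 of 36 tested fell (55.6%, beside 25.9%) and 6 rose (16.7%, beside 19%). Their median was -0.46. IRS1, the adaptor of insulin and IGF receptors, was dim at 100 nM and at least 4.71-fold lower, with 54.6, 41.1 and 51.98 at 25 nM and 8.28, 10.9 and 6.06 at 100 nM. The WNT receptor ROR2 went from 61.4 ± 6.53 to 14.2 ± 1.53 and fell by 2.11 ± 0.14. The related adaptor IRS2 rose by 0.47 ± 0.11, and JAG1, a Notch ligand, read 103, 85.04 and 90.5 at 25 nM and 177, 151 and 159.8 at 100 nM and rose by 0.81 ± 0.11. With spike-in centring the change of IRS2 was 0.036 and did not pass (adjusted p = 0.826), while the calls of IRS1, ROR2 and JAG1 held there.

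Osteoblast lineage and matrix genes showed no common direction: of 23 tested 6 rose and 6 fell (26.1% each, beside 19% and 25.9% of all genes), with a median of 0.09. With spike-in centring falls outnumbered rises by 14 and with ribosomal centring by 6. RUNX2, the master factor of osteoblasts, read 126, 88.03 and 124 at 25 nM and 41.4, 38.9 and 36.3 at 100 nM and fell by 1.52 ± 0.15 (adjusted p = 1.24e-06). TWIST1 fell by 1.43 ± 0.13 from 228 ± 18.9 to 85.1 ± 14.4, and BMP4, a bone morphogenetic protein, by 1.31 ± 0.17 from 122 ± 19.03 to 49.9 ± 12.02. The matrix gene COL5A1 rose by 0.50 ± 0.11 and THY1, a surface marker of mesenchymal cells, by 0.53 ± 0.12. With spike-in centring they changed by 0.066 (adjusted p = 0.683) and 0.089 (adjusted p = 0.609) and did not pass. The factors and the ligand were more than 2-fold lower, while the rises of the matrix and surface genes stayed under 2-fold.

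TGF-beta, BMP, YAP and TEAD target genes fell in 18 of 31 cases (58.1%, beside 25.9%) and rose in 5 (16.1%, beside 19%). Their median was -0.59. TGIF2, a repressor of SMADs, read 226, 218 and 207 at 25 nM and 42.8, 63.1 and 37.3 at 100 nM and fell by 2.22 ± 0.16. PMEPA1, a TGF-beta target that damps the pathway, read 191, 150.1 and 184 at 25 nM and 50.6, 53.4 and 33.6 at 100 nM and fell by 1.95 ± 0.16. The inhibitory SMAD6 fell by 1.91 ± 0.15 and the signalling SMAD3 by 1.56 ± 0.13. ID2, a BMP target that blocks differentiation factors, read 125, 133 and 115 at 25 nM and 294, 302 and 345 at 100 nM and rose by 1.33 ± 0.10. The phosphatase PTPN14, which holds YAP back, rose by 1.21 ± 0.15.

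NF-kB targets and cytokines fell in 12 of 25 cases (48%, beside 25.9% of all genes) and rose in 5 (20%, near the 19% of all genes). Their median was -0.25. NFKBIE, an inhibitor of NF-kB, read 185, 176 and 174 at 25 nM and 41.9, 68.1 and 44.6 at 100 nM and fell by 1.82 ± 0.16. The cytokine LIF fell from 175 ± 8.94 to 56.8 ± 11.1 (-1.64 ± 0.13) and the NF-kB subunit RELB by 0.92 ± 0.11. The chemokine CCL20 read 17.4, 14.6 and 18.5 at 25 nM and 44.9, 54.2 and 53.8 at 100 nM and rose by 1.60 ± 0.14, and CXCL3 rose from 54.4 ± 13.1 to 124 ± 8.22 (1.21 ± 0.16). CXCL8 (interleukin 8) read 3191, 3019 and 3148 at 25 nM and 2978, 2702 and 3468 at 100 nM and did not pass (-0.040 ± 0.076, adjusted p = 0.687). With spike-in centring CXCL8 changed by -0.48 and passed as lower.

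Interferon genes rose in 8 of 25 cases (32%, beside 19%) and fell in 4 (16%, beside 25.9%). Their median was 0.15, and spike-in or ribosomal centring turned the balance of rises and falls. IFI6 read 114, 111 and 89.3 at 25 nM and 214, 252 and 201 at 100 nM and rose by 1.09 ± 0.12, and IFI27 rose from 156 ± 28.7 to 281 ± 18.4 (0.86 ± 0.12). The factor IRF1 fell from 130.3 ± 9.54 to 46.4 ± 9.35 (-1.51 ± 0.15), as IRF2 had done.

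Genes of the stress pathways fell more often than they rose. Of 28 ATF4 and unfolded protein response genes tested 14 fell (50%, beside 25.9% of all genes) and 4 rose (14.3%, beside 19%). Their median was -0.30. XBP1, the transcription factor of the endoplasmic reticulum response, read 446, 541 and 508 at 25 nM and 134, 159.8 and 105 at 100 nM and fell by 1.92 ± 0.14. The amino acid transporter SLC38A2 read 744, 657 and 749.6 at 25 nM and 241, 284 and 229 at 100 nM and fell by 1.52 ± 0.10. HERPUD1, of protein degradation at the endoplasmic reticulum, fell by 1.51 ± 0.16 and DDIT3 (CHOP) by 1.49 ± 0.14. In contrast ATF3 rose by 0.93 ± 0.13 from 41.2 ± 2.43 to 79.1 ± 10.9, and asparagine synthetase (ASNS) rose by 0.62 ± 0.071.

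Heat shock genes were called about as often as other genes: of 18 tested 4 fell (22.2%, beside 25.9%) and 3 rose (16.7%, beside 19%), a balance that median centring turned. The inducible HSPA1B read 340.1, 458 and 437 at 25 nM and 739, 739 and 588 at 100 nM and rose by 0.75 ± 0.12. Its near-identical copy HSPA1A may share its probes. The co-chaperone DNAJB1 read 407, 568 and 474 at 25 nM and 159.8, 197 and 116 at 100 nM and fell by 1.64 ± 0.16. The constitutive HSPA8 fell by 0.48 ± 0.052, with 1 of its 9 probe sets opposite, and DNAJB6 rose by 0.45 ± 0.088. In cholesterol synthesis 4 of 17 fell (23.5%) and 3 rose (17.6%), also near those shares, and median centring or quantile normalization turned the balance. SQLE, squalene epoxidase, fell by 0.90 ± 0.11 from 606 ± 43.004 to 328 ± 53.3 and MVK, mevalonate kinase, by 0.86 ± 0.13, while PMVK rose by 0.61 ± 0.11 and TM7SF2 by 0.47 ± 0.13.

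Ribosome biogenesis genes and ribosomal protein genes moved differently. Of 36 biogenesis genes tested 19 fell (52.8%, beside 25.9%) and 1 rose (2.78%, beside 19%), with a median of -0.33. PPAN, of the large subunit's assembly, read 115, 133 and 135 at 25 nM and 40.2, 34.8 and 37.3 at 100 nM and fell by 1.77 ± 0.12. The RNA polymerase I subunits POLR1B and POLR1A fell by 1.53 ± 0.12 and 1.18 ± 0.10. RRP1B fell by 1.23 ± 0.083 on the probe set used, and its other probe set passed in the opposite direction. Of 63 cytosolic ribosomal protein genes 6 rose (9.52%, beside 19%), 0 fell (beside 25.9%) and the median was 0.037. Centring on spike-ins or on these genes themselves turned the balance. RPL27A, the largest of those rises, read 104, 102 and 107 at 25 nM and 140.1, 153 and 135 at 100 nM (0.45 ± 0.10). Its single probe set was far dimmer than those of the other ribosomal protein genes tested, whose 25 nM means were 1512 (RPL35A) or higher.

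Splicing factors fell in 14 of 37 cases (37.8%, beside 25.9%) and rose in 4 (10.8%, beside 19%), with a median of -0.043. RBM5 went from 256 ± 10.3 to 86.8 ± 24.4 (-1.59 ± 0.15) and RBM39, a splicing factor of the U2AF family, read 781, 729 and 776 at 25 nM and 249, 311 and 324 at 100 nM (-1.38 ± 0.10). HNRNPF fell by 0.82 ± 0.070. Beside RSRP1, LUC7L3 of the U1 particle rose by 0.63 ± 0.10, with 1 of its 5 probe sets opposite. Subunits of oxidative phosphorylation rose in 24 of 63 cases (38.1%, beside 19%) and fell in 1 (1.59%, beside 25.9%). The changes were small, with a median of 0.13, and spike-in or ribosomal centring turned the balance. NDUFA5 of complex I, the largest of these rises, read 437, 385 and 419 at 25 nM and 635, 617 and 760.1 at 100 nM (0.69 ± 0.094).

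Genes whose symbols start with ZNF, mostly zinc finger factors, were gathered after the values were seen. Of 283 tested 153 fell (54.1%, beside 25.9%) and 15 rose (5.3%, beside 19%), with a median of -0.46. A fall of at least 2-fold was reached by 76 of the 283, beside 8.84% of all genes. The largest fall among them was that of ZNF827.

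**Figure D3:**
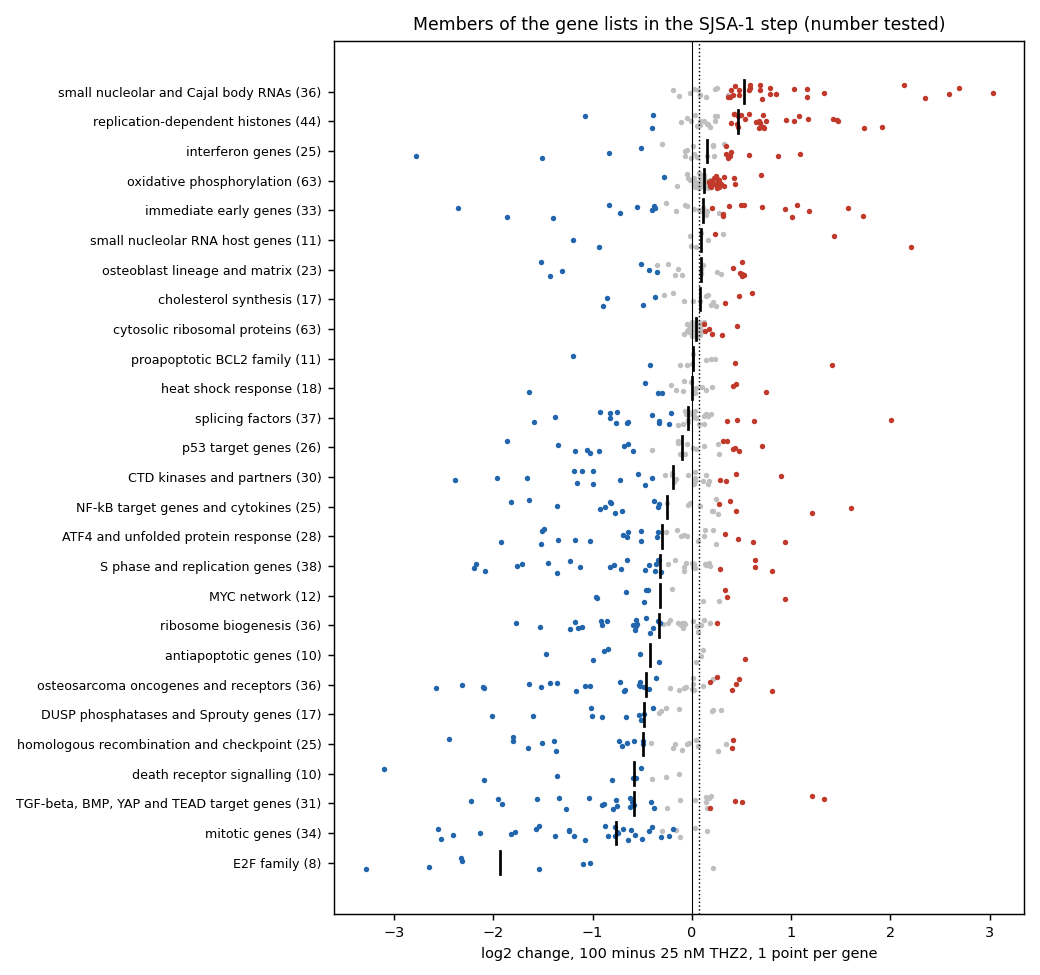
Log2 change in the step of each tested member of 27 gene lists, 1 point per gene, with rises past the threshold in red, falls in blue and other genes in grey. Black bars are list medians and the dotted line is the median of all genes tested, 0.07. The E2F family (-1.93) and the mitotic genes (-0.76) lie lowest and the small nucleolar RNAs (0.53) and histones (0.46) highest.

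The same step was then set against that in U2-OS, whose arrays enter no fitted value of the step above. There 5097 of 14009 genes were higher and 4319 lower at 100 nM (36.4% and 30.8%), and 881 (6.29%) fell at least 2-fold. Across 13775 genes the changes in the 2 lines had a Pearson r of 0.762 and a Spearman rho of 0.67, which describes genes, not independent replicates. Of the genes that fell at least 2-fold in SJSA-1 and could be tested in U2-OS, 585 of 1166 (50.2%) fell at least 2-fold there too. These are 69.6% of the 841 such genes of U2-OS. With falls of any size counted, 1107 of the 1166 passed as lower in U2-OS, beside 30.8% of all genes tested there. The difference between the lines in the step was tested over 12 arrays and passed for 3093 of 14287 genes (21.6%): 1569 lay higher in SJSA-1 (11%) and 1524 lower (10.7%). With median centring 66.3% of those that passed were higher in SJSA-1, with ribosomal centring 28%. The arrays of the lines may have been normalized apart, so only differences of within-line changes are compared.

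Of the 3093 genes whose difference passed, 129 were dim in U2-OS at both doses, which means under 15.56, the 30th percentile of those arrays. ZIC5, BNC1, FLI1 and IRAK2 are among them, so a fall in U2-OS could not have been seen and their difference is no measure of a response there. ZIC5 changed by -2.92 in SJSA-1, and in U2-OS it read 5.76, 5.33 and 5.99 at 25 nM and 5.99, 6.32 and 6.80 at 100 nM. BNC1 changed by -2.77 in SJSA-1 and read 5.23, 5.90 and 5.98 at 25 nM and 5.98, 5.98 and 5.23 at 100 nM in U2-OS. FLI1, an ETS factor, read 65.8, 54.6 and 61.8 at 25 nM and 10.7, 10.4 and 11.2 at 100 nM in SJSA-1 (log2 change -2.49), and 6.69, 6.29 and 6.27 at 25 nM and 7.13, 7.13 and 6.78 at 100 nM in U2-OS. IRAK2, a kinase of interleukin 1 and Toll-like receptor signalling, changed by -2.63 in SJSA-1 on the probe set used. With its probe set chosen over all 24 arrays it changed by -0.12 and did not pass (adjusted p = 0.530). DAPK1, a death-associated kinase, changed by -2.16 in SJSA-1 and by 0.15 in U2-OS, where its means were near the dim line. Of its 4 probe sets 3 moved the other way without passing, and with the mean of its probe sets the change was -0.43. In all 5 the SJSA-1 arrays at 100 nM lay below those at 25 nM without overlap.

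Other genes moved in U2-OS and not in SJSA-1, or in opposite directions. CXCL8 rose in U2-OS, with 80.04, 67.3 and 77.1 at 25 nM and 404, 462 and 409.7 at 100 nM, by 2.51, beside -0.040 in SJSA-1 (difference -2.55 ± 0.12, adjusted p = 8.31e-10). SHISA2, an inhibitor of receptor maturation, changed by 2.31 in U2-OS but by -0.32 in SJSA-1. PHLDA1 changed by 0.68 and -1.86. MYC changed by -0.77 in U2-OS, with 733, 715 and 746 at 25 nM and 425, 423 and 439 at 100 nM, and by 0.94 in SJSA-1 (difference 1.71 ± 0.15, adjusted p = 5.73e-07). ST6GALNAC5, a sialyltransferase, read 11.2, 11.9 and 15.9 at 25 nM and 25.1, 26.5 and 25.3 at 100 nM in SJSA-1 and 141, 141 and 146 at 25 nM and 40.5, 55.6 and 32.8 at 100 nM in U2-OS, changes of 0.997 and -1.77. BCL2L2 changed by -1.61 in U2-OS and 0.11 in SJSA-1.

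The change of some histone genes also differed between the lines. Of 41 histone genes tested 12 had a higher change in SJSA-1 and 2 a lower one, beside 11% and 10.7% of all genes, but 7 of the 12 and 1 of the 2 were dim in U2-OS at both doses. H2AC17 is one of these: it read 6.97, 7.11 and 7.49 at 25 nM and 7.87, 7.38 and 7.24 at 100 nM in U2-OS, where its level stayed under the dim line, and changed by 1.91 in SJSA-1. ARIH2OS, dim at 25 nM in both lines, had fitted changes of 0.77 in U2-OS and 2.88 in SJSA-1. Mitotic genes were lower in SJSA-1 in 14 of 34 cases and higher in 0, and NF-kB targets lower in 15 of 25 and higher in 0. Hosts of small nucleolar RNAs were higher in SJSA-1 in 8 of 11 cases and lower in 0. CDK7 changed by -0.35 in U2-OS (difference -0.80 ± 0.11, adjusted p = 7.5e-05), CDK12 by -0.022 (difference -1.08 ± 0.15) and MCL1 by -0.48 (difference -0.99 ± 0.13), so the change of each was lower in SJSA-1. MDM2 changed by 0.45 in U2-OS, opposite to its fall in SJSA-1 (difference -1.13 ± 0.14, adjusted p = 2.07e-05). The splicing factor RBM39 changed by 0.0018 in U2-OS (difference -1.38 ± 0.11), and TWIST1 was dim there at both doses.

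**Figure D4:**
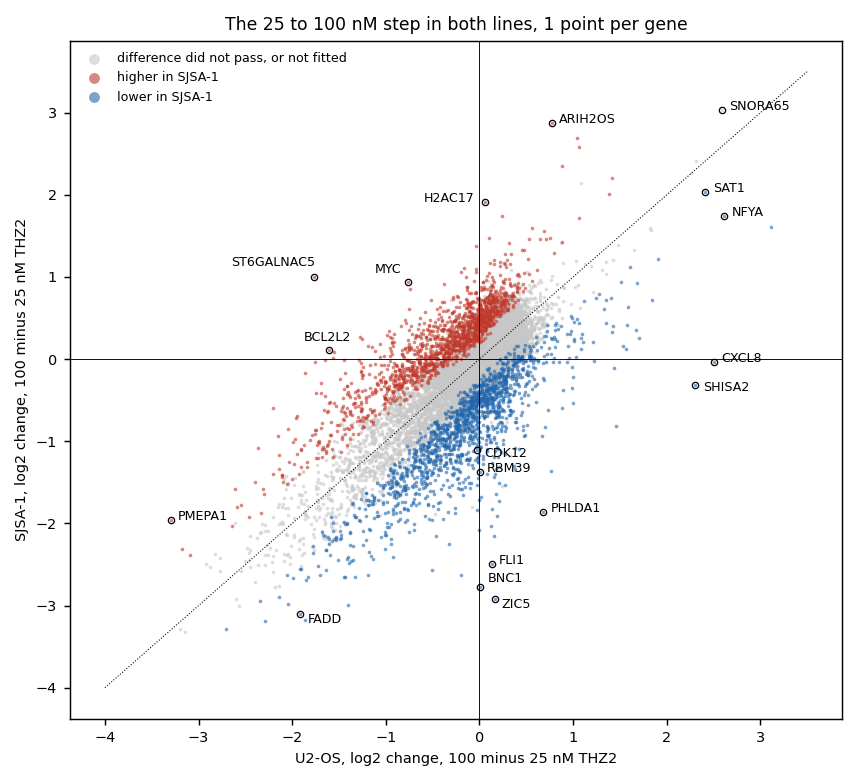
Log2 change from 25 to 100 nM THZ2 in U2-OS (horizontal axis) and in SJSA-1 (vertical axis), 1 point per gene tested in SJSA-1, with the line of equal change dotted. Genes whose difference between the lines passed are red (higher in SJSA-1) or blue (lower); ZIC5 and BNC1, which are dim in U2-OS, lie low at a U2-OS change near 0, and CXCL8 lies far right at an SJSA-1 change near 0.

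The step was last set against the next one, from 100 to 400 nM. The 2 steps share the 100 nM arrays, so an array that deviates enters both with opposite sign, and the values are given side by side. Of the 73 genes that rose at least 2-fold 61 had a lower mean at 400 than at 100 nM, with a median difference of -0.70, beside 4909 of all 13775 genes with a median of 0.097. Of the 1218 that fell at least 2-fold 717 went lower still at 400 nM and 501 higher, and all but 1 stayed below their 25 nM level. The difference of the steps passed for 2778 of 13901 genes (20%), with a larger value in the first step for 891 (6.41%) and a smaller one for 1887 (13.6%). With spike-in centring 96 passed, 54 of them (56.2%) larger. Replicate 2 at 400 nM had spike-ins at 8.84 (mean log2), against 7.70 and 7.18 in the other two.

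Several genes rose and then fell back. C11orf96 read 52.9 at 25 nM, 281 at 100 nM and 77.5 at 400 nM (difference of the steps 4.27 ± 0.21, adjusted p = 3.98e-09). BCL2L11 read 55.4 at 25 nM, 145 at 100 nM and 18.5 at 400 nM, its 400 nM arrays being 19.7, 10.5 and 25.5. HSPA1B read 412 at 25 nM, 689 at 100 nM and 103 at 400 nM and MYC 41.8 at 25 nM, 79.5 at 100 nM and 21.1 at 400 nM, so both ended below their 25 nM level. SNORA74A read 14.9 at 25 nM, 89.4 at 100 nM and 30.8 at 400 nM and SNORD12B 7.19 at 25 nM, 45.7 at 100 nM and 16.3 at 400 nM, SNORA65 50.03 at 25 nM, 407 at 100 nM and 244 at 400 nM and SNHG17 26.4 at 25 nM, 123 at 100 nM and 41.9 at 400 nM. For these 4 RNAs the 400 nM mean still lay above the 25 nM mean.

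Other genes fell and then came partly back. E2F5 read 115 at 25 nM, 22.9 at 100 nM and 89.3 at 400 nM, with 400 nM arrays of 93.7, 99.7 and 74.5 (difference of the steps -4.28 ± 0.25, adjusted p = 1.9e-08). ANKRD46, an ankyrin repeat protein, read 52.8 at 25 nM, 15.996 at 100 nM and 52.1 at 400 nM, close to its start. MAU2, the loader of cohesin, read 178 at 25 nM, 28.6 at 100 nM and 82.7 at 400 nM, and ZNF232 119.6 at 25 nM, 22.3 at 100 nM and 51.1 at 400 nM. FLI1 read 60.7 at 25 nM, 10.8 at 100 nM and 23.6 at 400 nM, IRAK2 79.6 at 25 nM, 12.9 at 100 nM and 23.5 at 400 nM and KNSTRN 595 at 25 nM, 103 at 100 nM and 193 at 400 nM. DHX32 read 155 at 25 nM, 19.6 at 100 nM and 28.5 at 400 nM, where the return was small. In FLI1, IRAK2, KNSTRN and MAU2 the 400 nM level stayed far below that at 25 nM.

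**Figure D5:**
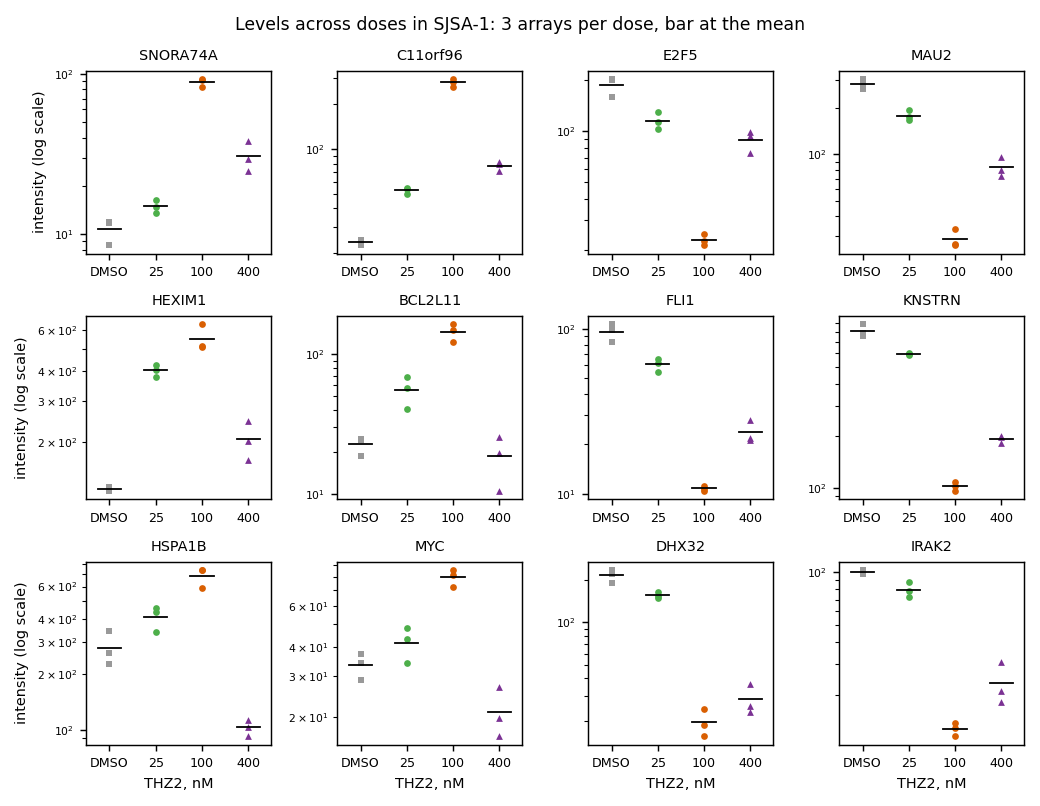
Intensity on a log axis in each of the 12 SJSA-1 arrays for 12 genes, chosen after their values were seen, at DMSO, 25, 100 and 400 nM THZ2, with a bar at each mean. The left 2 columns show genes highest at 100 nM, such as C11orf96 and MYC, and the right 2 columns genes lowest at 100 nM, such as E2F5 and MAU2.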

How the data were processed

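The authors deposited a linear intensity for each probe set on each array. The submitters' processing notes name MAS5 and RMA, in roles and with versions not given in the sources used here. No depth exists for arrays, and their number limits the precision. Log2 of the intensity was analysed without a pseudocount. Of 49372 probe sets 44988 name 1 gene (44961 matched RefSeq of GRCh38.p14); 79 controls, 1832 naming several and 2473 naming none were left out. Each gene was read by whichever of its probe sets was brightest on average over the 6 arrays, and genes under the 30th percentile (10.13) were dropped. Groups came from the labels. limma 3.58.1 in R 4.3.3 (lmFit, eBayes with an intensity trend) gave the step, and its differences from U2-OS (12 arrays) and from 100 to 400 nM (9 arrays); scripts were tested on simulated data. Other scalings, pseudocounts, filters, probe set choices, arrays in the fit, the replicate block and leaving out each array were tried.

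Named genes are the 15 largest falls and rises that passed without overlap, up to 4 and 2 members of each list in its main and other direction, fixed genes, and up to 8 each way per difference. CCDC62 and BCL11B, too dim for the step, and METTL15 and SEC24A, with conflicting probe sets, were left out. Members and lists were chosen with earlier results of these data known.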

Additional observations from a re-analysis of the deposited data

Results flagged for a closer look

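The items listed here are named genes, from the largest line differences and the fixed genes, whose change from 25 to 100 nM differed between SJSA-1 and U2-OS in the test of the difference itself (limma over 12 arrays, adjusted p below 0.05, passed by 21.6% of all genes tested). Values are the log2 change in SJSA-1 minus that in U2-OS. Their causes were not tested, and the genes were chosen for large values, so the sizes are a description. ZIC5, BNC1, FLI1, IRAK2 and H2AC17 were under the dim line of the U2-OS arrays (15.56) at both doses, so their fitted differences are no measure of a response in that line.

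Lower in SJSA-1 were ZIC5 (-3.08), BNC1 (-2.78), SHISA2 (-2.62), FLI1 (-2.62), CXCL8 (-2.55), PHLDA1 (-2.54), IRAK2 (-2.43) and DAPK1 (-2.31). Among genes of transcription the difference was -1.08 for CDK12, -0.80 for CDK7, -0.74 for CDK13 and -0.60 for POLR2A. Among genes of survival and p53 it was -1.19 for FADD, -1.13 for MDM2, -0.99 for MCL1 and -0.65 for CDKN1A, and for the osteoblast factor RUNX2 it was -0.56. Higher in SJSA-1 were ST6GALNAC5 (2.76), ARIH2OS (2.10), H2AC17 (1.85), BCL2L2 (1.72), MYC (1.71) and MNAT1 (0.36).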

How the results depend on the processing

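The step passed for 4900 to 6233 genes when 1 array was left out, 6181 with all, and for 5845 with the replicate number as a block. Falls of at least 2-fold numbered 1128 to 1330 and rises 66 to 89. Replicate numbers did not pair the SJSA-1 arrays: deviations from the group means correlated at -0.36, -0.18 and 0.17 for numbers 1 to 3. The block gave 2875 for the line difference and 2762 for the difference of the steps, and without 1 array these ranged from 2329 to 3360 and from 1896 to 3435. Of the 153 named genes 152 kept their direction and side of the threshold with the block, and 147 with ribosomal centring. With spike-in centring 130 did, 7 turned sign, and of those that kept their sign 12 no longer passed and 4 newly passed. Among the 7 that turned sign, BCL2L2, CCNH, MNAT1 and POLR2A newly passed as lower, and PMAIP1 and ZFAS1 no longer passed. With the mean of probe sets 144 did, 4 turned sign, and 4 that kept their sign no longer passed.

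Falls and rises of at least 2-fold came to 2403 and 25 with spike-in centring, 755 and 37 with a pseudocount of 16, 242 and 15 with 64, and 2351 and 201 with each probe set by itself, where 14406 probe sets passed. Averaging the probe sets of each gene gave 755 falls. A pseudocount compresses changes of dim genes by construction; the other causes were not tested. Spike-in centring left 96 genes in the difference of the steps.

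Rises minus falls turned or closed in some lists. With spike-in centring it was 0 for histones (24 in the deposited scaling), -14 for osteoblast genes (0), -11 for immediate early genes, -45 for oxidative phosphorylation, -61 for ribosomal proteins, -5 for hosts of small nucleolar RNAs and -10 for interferon genes. With ribosomal centring it was -1 for immediate early genes, -2 for oxidative phosphorylation, -25 for ribosomal proteins and -1 for interferon genes. With median centring it was 1 for heat shock and 2 for cholesterol synthesis, which quantile normalization also put at 2.

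Some named genes turned sign, among them genes with a change near 0 in the deposited scaling. With spike-in centring BCL2L2 changed by -0.33, CCNH by -0.41, E2F1 by -0.22, MNAT1 by -0.41, PMAIP1 by -0.00083, POLR2A by -0.30 and ZFAS1 by -0.20. Of these BCL2L2, CCNH, MNAT1 and POLR2A passed as lower there. With ribosomal centring BCL2L2 changed by -0.025, CCNH by -0.10 and MNAT1 by -0.11. CCNH changed by -0.0078 with quantile normalization, and CXCL8 by 0.027 with median centring. With the mean of probe sets CXCL8 changed by 0.051, NFYA by -0.11, SHISA2 by 0.033 and ZFAS1 by -0.14. NFYA had risen by 1.74 on its own probe set. HEXIM1, at 0.44 on its own, changed by -0.33 and passed as lower with the probe set chosen over all 24 arrays. Without 1 array CCNH ranged from -0.12 to 0.13, CXCL8 from -0.14 to 0.043 and MNAT1 from -0.027 to 0.098.

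Calls ended for single genes as follows. Spike-in centring ended 12 rises that kept their sign, at changes from 0.0058 (HEXIM1) to 0.26 (NDUFA5). It also ended those of PMAIP1 and ZFAS1, which turned sign. The mean of probe sets ended the calls of HEXIM1 (0.11), LUC7L3 (0.23), TM7SF2 (0.21) and XIAP (-0.16), and those of NFYA and ZFAS1, which turned sign. The probe set chosen over all 24 arrays ended the calls of IRAK2 (-0.12) and ZFAS1 (0.17). ZFAS1 also missed the threshold with ribosomal centring (0.099) and without the intensity trend.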
